A study of Mus musculus with 40 samples.

Results

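The 66cl4-based intraductal model of triple-negative breast cancer was treated in a 2-by-2 layout, with and without chitin and with and without anti-PD-1, and the question addressed here is which genes in the primary tumors departed from the sum of both treatments. The members are all tumors of this model with values in the deposited expression table, 20 of 39, with 5 in each of 4 groups: untreated, anti-PD-1 alone, chitin alone and their combination. The other 19 tumors belong to the 4T1-based model (4 untreated and 5 in each treated group) and served for a test of the difference between models. All mice were wild-type female BALB/c mice, mated at 8 w of age, whose mammary glands were inoculated through the duct with luciferase-expressing 66cl4 cells during lactation. Treatment ran from 3 w to 5 w post-inoculation (p.i.), when the tumors were collected. Chitin was given i.p. as 1 mg of particles every 3 d, anti-PD-1 (clone RMP1-14) as 200 µg i.p. each week, the combination group received both, and the control group is labelled untreated. Both treatments were thus added to the same transplanted cell line in immunocompetent hosts, and 66cl4 is a single mammary carcinoma line from this mouse strain.

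PD-1 is an inhibitory receptor on activated T cells, and antibodies that block it release T cells from this brake. Its ligand PD-L1 is induced by interferon gamma. Chitinase-like proteins bind chitin without cleaving it, are secreted by neutrophils and macrophages, and are associated with immunosuppression and tissue repair, and injected chitin was used in the study to block them. When treatments act independently on a log scale, their differences from untreated tumors add up. The interaction measures the departure from this: the difference between chitin + anti-PD-1 and chitin, minus the difference between anti-PD-1 and untreated. It is above 0 when the combination lies above the additive level and below 0 when it lies below.

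Expression is given as deposited values of a variance stabilizing transformation (VST), a log2-like scale on which a difference of 1 is close to a doubling for well-expressed genes and smaller for genes with few reads. The reads behind these values ranged from 5732583 to 14800352 per tumor, with a median of 6125469 in the 10 tumors without chitin and 9629542.5 in the 10 tumors with chitin. Markers of a carcinoma with macrophages and stroma were present in all 20 tumors, since the epithelial keratin gene Krt8 ranged from 3152 to 5709 normalized counts, the leukocyte gene Ptprc from 721 to 1396 and the macrophage gene Csf1r from 3345 to 7863. The epithelial adhesion gene Epcam was low and variable, from 1.12 to 123 normalized counts. The T-cell gene Cd3e had only 5.28 to 49.7 normalized counts, and the B-cell gene Ms4a1, the neutrophil gene Ly6g and the milk protein gene Wap were not listed in the table. The neutrophil markers S100a8 and Csf3r were present, from 16.3 to 83.85 and from 136 to 306 normalized counts. These are bulk tumors, in which fewer cells of a type and less RNA per cell cannot be told apart. The skeletal muscle actin gene Acta1 exceeded 100 normalized counts in 5 tumors, namely untreated tumor 3, anti-PD-1 tumor 3 and combination tumors 3, 4 and 5, and a fit without these 5 tumors, which leaves 2 tumors in the combination group, is given beside results that move by more than 1.5 times.

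No gene passed the test for a departure from additivity. In limma with Benjamini-Hochberg adjustment over all 14318 genes, 0 genes (0%) reached an adjusted p under 0.05. A weighted linear model on log counts of the reads behind the values, limma-voom, gave 0 as well. At an unadjusted p under 0.05 there were 714 genes (4.99%) in limma and 700 in limma-voom, where uniform p-values would give 715.9. Of the 714 genes, 346 (2.42%) lay above the additive level and 368 (2.57%) below it. At an unadjusted p under 0.001 there were 13 genes, against 14.3 for uniform p-values. The counts per interval of p were level over the whole range, from 667 to 772 genes in 20 intervals.

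**Figure D1:**
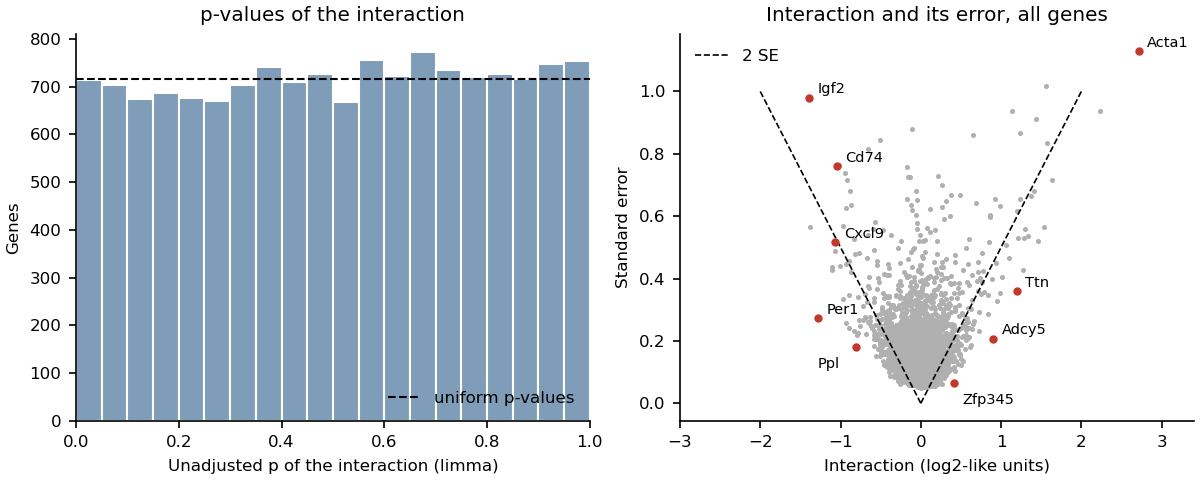
Left, number of genes by unadjusted limma p of the 66cl4 interaction in 20 equal intervals, with the level of uniform p-values dashed; right, interaction (log2-like units) against its standard error for 14318 genes, one point each, with lines at 2 standard errors and 9 genes named. The bars hold 667 to 772 genes each, and the genes with the widest departures, Acta1 and Igf2, also have standard errors near 1.

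The estimates were nonetheless narrow for most genes. The median interaction was 0.00, the 5th percentile was -0.21 and the 95th was 0.18 log2-like units, with a median standard error of 0.10. The 95% confidence interval of the interaction lay within ±0.5 for 12694 genes (88.7%) and within ±1 for 14048 genes (98.1%). For the other 270 genes the interval reached beyond ±1. Genes with few reads are compressed on this scale, so their narrow intervals do not bound their fold change. The lowest estimate was that of Igf2, a fetal growth factor gene (-1.39, SE 0.98), and the highest was that of Acta1 (2.71, SE 1.13). Both were chosen after their values were seen, and both varied widely within groups: Igf2 ranged from 6.33 to 10.44 among the 5 chitin tumors alone.

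The difference made by anti-PD-1 was estimated separately without chitin (anti-PD-1 minus untreated) and with chitin (combination minus chitin), in tumors that do not overlap. Across the 14318 genes these differences had SDs of 0.10 and 0.10 log2-like units and a correlation of r = -0.12. The differences made by chitin, without and with anti-PD-1, had SDs of 0.13 and 0.12 and a correlation of r = 0.30. Genes are not independent replicates, and these correlations are descriptions across genes.

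**Figure D2:**
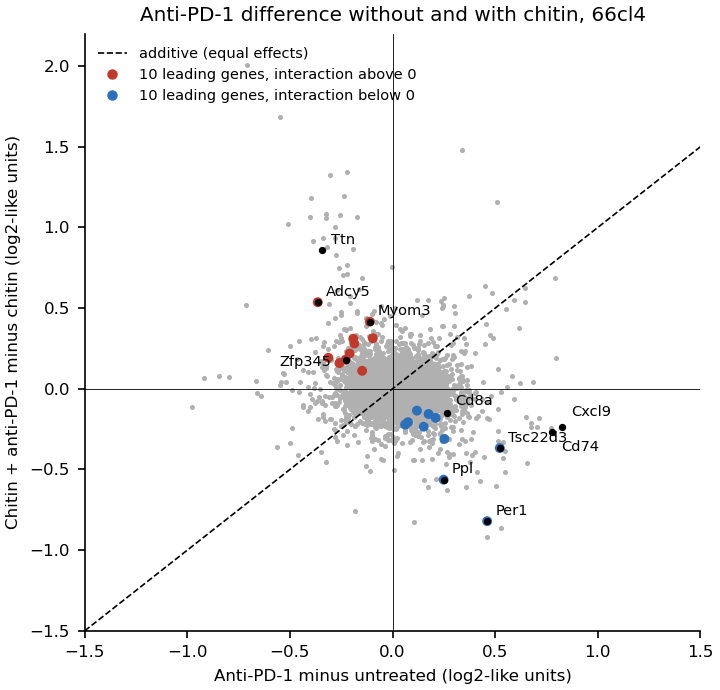
Anti-PD-1 minus untreated (x axis) against chitin + anti-PD-1 minus chitin (y axis), both in log2-like units, for 14318 genes (grey), with the 10 leading genes above the additive level in red and the 10 below it in blue. The dashed diagonal marks additivity; the correlation across genes is r = -0.12, and Per1, Ppl and Tsc22d3 lie to the lower right and Adcy5 and Ttn to the upper left.

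Zfp345, which encodes a KRAB zinc finger protein of the family of sequence-specific transcriptional repressors, had the smallest p of all genes. In the untreated tumors its values were 7.43, 7.40, 7.45, 7.51 and 7.51. Under anti-PD-1 they were 7.27, 7.25, 7.22, 7.19 and 7.21, and under chitin they were 7.32, 7.15, 7.29, 7.37 and 7.27. In the combination they were 7.40, 7.41, 7.52, 7.43 and 7.53. All tumors of either single treatment thus lay below all untreated tumors, and all combination tumors lay above all of both single-treatment groups, at the level of untreated tumors. In normalized counts the means were 68.3 ± 5.10 (SD, n = 5) in untreated, 46.8 ± 2.48 in anti-PD-1, 51.1 ± 6.93 in chitin and 68.4 ± 6.55 in combination tumors. The interaction was 0.41 (SE 0.066, 95% CI 0.27 to 0.55), with an unadjusted p of 4.08e-06 and an adjusted p of 0.0585 (limma, Benjamini-Hochberg), just outside the threshold. It rests on 35 to 135 reads per tumor. The gene lies within 1 Mb of other zinc finger genes with related sequence (Zfp120, Zfp937 and Zfp442), and reads shared with near-identical copies could have been split in counting, so its level is uncertain. Since the smallest p among 14318 genes was picked, the separation of the groups is a description of these tumors.

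The next genes on the positive side all had an adjusted p of 0.841. Adcy5 encodes an adenylyl cyclase, which makes the second messenger cyclic AMP. It had values of 7.84, 7.94, 7.66, 8.65 and 8.16 in untreated tumors and 7.61, 7.77, 7.57, 7.64 and 7.84 under anti-PD-1. Under chitin the values were 7.95, 7.79, 8.04, 7.79 and 7.72, and in the combination they were 8.33, 8.78, 8.11, 8.59 and 8.15. The combination tumors lay above all tumors of both single treatments and overlapped the untreated ones. The interaction was 0.90 (SE 0.21, unadjusted p = 0.000313). Bid, a BH3-only death protein gene of the BCL-2 family, had an interaction of 0.26 (SE 0.062), with all anti-PD-1 tumors below all untreated ones and the combination above all anti-PD-1 tumors. Adgra3, an adhesion G protein-coupled receptor gene, showed the same order with an interaction of 0.51 (SE 0.12).

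The other positive leading genes were Rrad (a small GTPase that limits calcium channels, 0.43, SE 0.10), Mapt (the microtubule-associated protein tau, 0.41, SE 0.11), Dennd2b (a Rab exchange factor, 0.47, SE 0.13) and Rgs16 (a brake on G protein signalling, 0.42, SE 0.12), together with 2 genes of striated muscle. These were Myom3, a sarcomere M-band protein gene (0.53, SE 0.14), and Ankrd2, a stretch-responsive muscle gene (0.50, SE 0.14). Reads were few, with 0 to 28 per tumor for Myom3, 0 to 33 for Ankrd2 and 0 to 15 for Mapt. Without the 5 tumors with high Acta1, the interaction of Myom3 was 0.23 and that of Ankrd2 was 0.25, while that of Adcy5 was 1.13 and that of Zfp345 was 0.36.

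On the negative side Per1, a core repressor of the circadian clock that is also induced by glucocorticoids, led the list. Its values were 8.87, 8.96, 8.15, 8.63 and 9.12 in untreated tumors and 9.68, 9.74, 8.57, 9.03 and 9.02 under anti-PD-1. Under chitin they were 9.29, 9.37, 8.95, 9.53 and 9.39. In the combination they were 8.53, 8.60, 8.45, 8.60 and 8.26, all below every chitin tumor, while untreated and anti-PD-1 tumors overlapped. The mean normalized count was 319 ± 102 (SD, n = 5) in untreated, 495 ± 205 in anti-PD-1, 513 ± 88.9 in chitin and 240 ± 33.1 in combination tumors, where a sum of both differences would have given 689. The interaction was -1.28 (SE 0.27, 95% CI -1.85 to -0.71, unadjusted p = 0.000130, adjusted p = 0.841 in limma).

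Ppl encodes periplakin, a plakin of the epithelial cornified envelope and desmosomes. Its values were 9.51, 9.55, 9.42, 8.996 and 9.46 in untreated tumors and 9.55, 9.77, 9.43, 9.96 and 9.47 under anti-PD-1. Under chitin they were 9.37, 9.38, 9.35, 9.77 and 9.76, and in the combination 8.74, 9.04, 9.26, 8.79 and 8.98. The combination tumors lay below all tumors of both single treatments. The interaction was -0.81 (SE 0.18, unadjusted p = 0.000207).

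Tsc22d3, the glucocorticoid-induced leucine zipper gene, had an interaction of -0.89 (SE 0.24), with a mean of 9.76 ± 0.40 (SD, n = 5) in untreated, 10.28 ± 0.36 in anti-PD-1, 10.00 ± 0.19 in chitin and 9.63 ± 0.18 in combination tumors. The groups of this gene overlapped in each of the 4 simple comparisons. Irak1, a kinase that relays Toll-like and interleukin-1 receptor signals, had a smaller departure (-0.25, SE 0.063). Its normalized counts ranged from 616 to 636 in untreated, 651 to 747 in anti-PD-1, 666 to 744 in chitin and 584 to 662 in combination tumors, so that both single treatments lay above untreated tumors and the combination below all chitin tumors. The other negative leading genes were Zfpm1 (the GATA cofactor FOG-1, -0.39), Sirt7 (a nucleolar sirtuin, -0.28), Abca7 (a lipid transporter, -0.33), St3gal1 (a sialyltransferase, -0.39), Zbtb7a (a POK-family repressor, -0.28) and Dlx3 (a homeobox gene of epidermal differentiation, -0.56). In Zfpm1, Sirt7 and Zbtb7a the combination tumors lay below all chitin tumors.

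**Figure D3:**
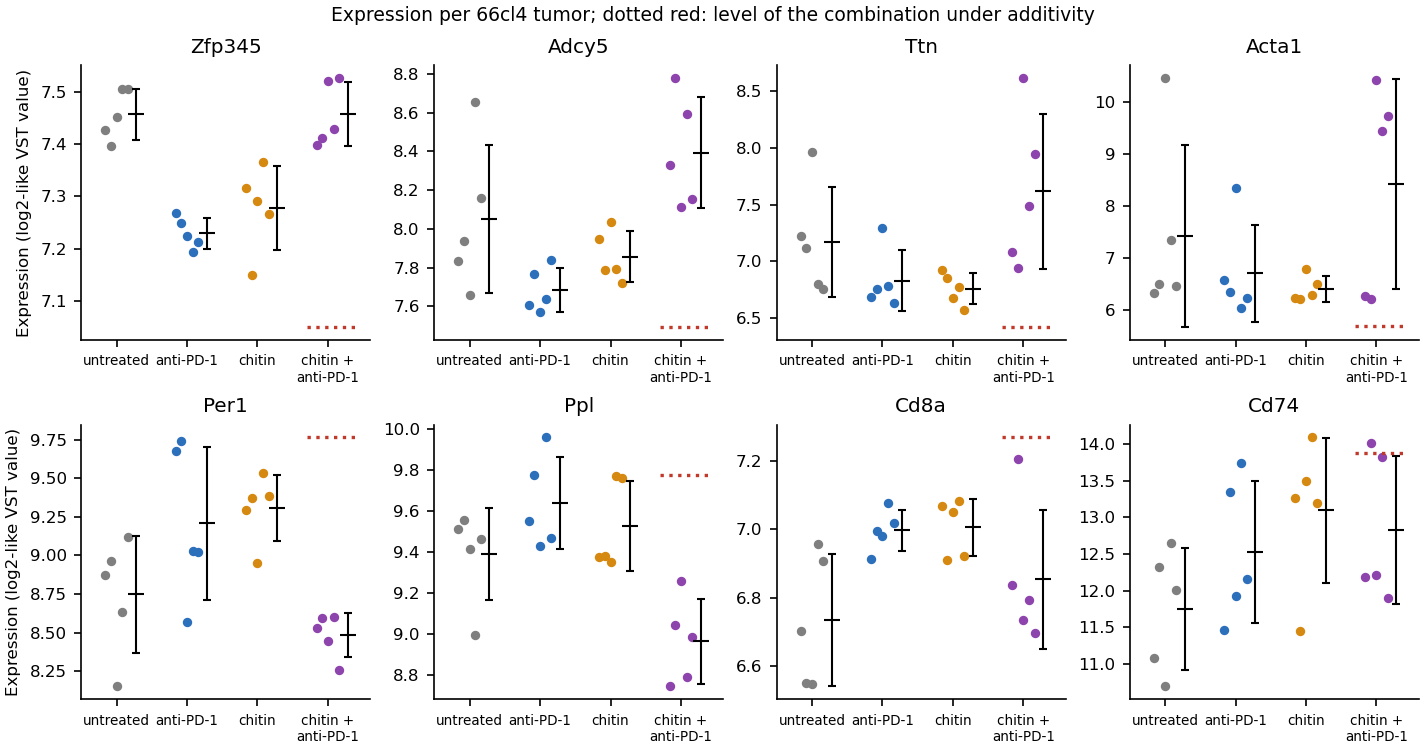
Expression (log2-like VST value) of 8 genes in each of the 20 tumors of the 66cl4-based model, by treatment, with the group mean ± SD of 5 tumors in black and the additive level of the combination dotted in red. Zfp345 and Adcy5 sit above and Per1 and Ppl below the additive level in all 5 combination tumors, Acta1 is high in 3 of them, and Cd74 spreads over about the same range in the chitin and combination groups.

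The 250 bases before a listed start of transcription are shown for Zfp345 and Per1, which led the 2 directions. They are also shown for 2 class II genes described below, chosen after their values were seen. The mean of both class II genes in the combination lay below the additive level, with intervals of the interaction that include 0. The sequences are RefSeq promoter entries on GRCm38.p6 (mm10), printed 5′ to 3′ in the direction of transcription. The Zfp345 gene spans chr2:150470991-150485063 and Per1 chr11:69095108-69109965. Capitals mark 2 motifs. One is the E-box CACGTG, a palindrome to which clock factors bind. The other is CCAATC, a form of the CCAAT box, which is the core of the Y-box in class II promoters. The entry for Zfp345 is chr2:150485064-150485313 on the minus strand and that for Per1, the first of 2 listed, is chr11:69098699-69098948 on the plus strand. The Per1 window lies inside the gene span given above, so it precedes an internal start and not the first base of the gene. The entry for H2-Aa is chr17:34287824-34288073 on the minus strand and that for H2-Eb1 is chr17:34305617-34305866 on the plus strand.
Zfp345: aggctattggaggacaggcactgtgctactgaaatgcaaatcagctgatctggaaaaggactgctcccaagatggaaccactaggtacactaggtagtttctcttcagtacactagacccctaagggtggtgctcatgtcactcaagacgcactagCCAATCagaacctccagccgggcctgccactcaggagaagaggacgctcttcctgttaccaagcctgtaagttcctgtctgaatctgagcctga
Per1: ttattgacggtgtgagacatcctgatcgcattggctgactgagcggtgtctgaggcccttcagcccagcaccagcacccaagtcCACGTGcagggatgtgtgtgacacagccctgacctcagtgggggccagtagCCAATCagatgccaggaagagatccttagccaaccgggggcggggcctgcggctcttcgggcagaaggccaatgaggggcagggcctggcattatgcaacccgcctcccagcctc
H2-Aa: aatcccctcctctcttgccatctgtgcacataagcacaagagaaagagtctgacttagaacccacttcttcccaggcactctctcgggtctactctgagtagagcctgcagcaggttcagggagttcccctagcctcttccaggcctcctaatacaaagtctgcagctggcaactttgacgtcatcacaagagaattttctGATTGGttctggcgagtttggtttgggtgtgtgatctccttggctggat
H2-Eb1: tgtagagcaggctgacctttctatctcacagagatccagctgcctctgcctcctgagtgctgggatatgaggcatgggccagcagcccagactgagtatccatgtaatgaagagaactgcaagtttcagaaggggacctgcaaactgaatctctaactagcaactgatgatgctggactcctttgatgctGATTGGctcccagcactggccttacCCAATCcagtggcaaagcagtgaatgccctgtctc
The E-box of Per1 lies 166 to 161 bases before this internal start, and 6.02% of 32851 mouse promoter windows of this length hold CACGTG. The CCAAT box was searched as CCAATC on both strands. CCAAT followed by another base was not searched and stays in lower case, as in Per1 and Zfp345. CCAATC was found in all 4 windows, at 94 to 89 bases before the start in Zfp345, 115 to 110 in Per1 and 49 to 44 in H2-Aa, and at 60 to 55 and 35 to 30 in H2-Eb1. In H2-Aa and at the first place in H2-Eb1 it reads GATTGG, the reverse complement. The motif is found in 14.6% of all windows, and a match describes the sequence only.

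The PD-1 axis itself showed no departure from additivity beyond its error. Pdcd1, which encodes PD-1, had an interaction of -0.10 (SE 0.15, 95% CI -0.40 to 0.21), and its mean was 6.83 ± 0.20 (SD, n = 5) in untreated, 6.92 ± 0.17 in anti-PD-1, 6.99 ± 0.14 in chitin and 6.99 ± 0.18 in combination tumors. Cd274, which encodes PD-L1, had an interaction of -0.10 (95% CI -0.52 to 0.32). Among 16 checkpoint and costimulatory receptor genes, 3 lay above and 13 below the additive level, none at an unadjusted p under 0.05, and their median interaction was -0.08 against 0.00 over all genes. Without the 5 tumors with high Acta1 the estimate of Pdcd1 was 0.03, that of Cd274 was 0.16 and the median of the list was -0.02.

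For T cells, Cd8a, the cytotoxic coreceptor, had values of 6.70, 6.55, 6.55, 6.96 and 6.91 in untreated tumors and 6.91, 6.99, 6.98, 7.08 and 7.02 under anti-PD-1. Under chitin they were 7.07, 6.91, 7.05, 7.08 and 6.92, and in the combination 6.84, 7.21, 6.73, 6.79 and 6.70. All but 1 combination tumor lay below every chitin tumor, the exception being tumor 2. The interaction was -0.42 (SE 0.13, unadjusted p = 0.00398, adjusted p = 0.965 in limma), from 7 to 63 reads per tumor. It was -0.21 (unadjusted p = 0.178) without the 5 tumors with high Acta1. Its partner Cd8b1 had an interaction of -0.11 (95% CI -0.38 to 0.15), and -0.03 without these tumors. Of the 15 T-cell receptor and coreceptor genes, 1 lay above and 14 below the additive level. An unadjusted p under 0.05 was reached by 2 of those below (Cd8a and Cd3e, the second chosen after its values were seen). Of all genes 2.57% lay below with such a p. The median interaction of the 15 genes was -0.13. Their median differences were 0.09 for anti-PD-1 and 0.14 for chitin against untreated, and 0.01 for the combination against chitin. The median interaction of this list was -0.05 without the 5 tumors with high Acta1.

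Cytotoxic effector genes were spread evenly, with 8 of 16 above and 8 below the additive level and a median of -0.01. Gzmb (granzyme B, 0.33, SE 0.28) and Prf1 (perforin, 0.57, SE 0.39) had lower means in all 3 treated groups than in untreated tumors. Prf1 ranged from 7.82 to 9.47 in untreated, 7.64 to 8.69 in anti-PD-1, 7.68 to 8.73 in chitin and 7.66 to 8.67 in combination tumors, with overlap throughout. Ifng, the interferon gamma gene, had an interaction of -0.22 (SE 0.11, unadjusted p = 0.0463, adjusted p = 0.995 in limma). This value rests on 0 to 6 reads per tumor, with 0 to 1 in untreated tumors, so it is uncertain. Il12b, a subunit of the T-cell-polarizing interleukin 12, had -0.10 (SE 0.14), Il18r1, a receptor on T and natural killer cells, had -0.28 (SE 0.15), and Foxp3, the regulatory T-cell factor, had -0.04 (SE 0.095). Without the tumors with high Acta1 these were -0.04, -0.18 and -0.10, and the median of the cytotoxic list was 0.01. In untreated tumors Foxp3 ranged from 86.8 to 145 normalized counts, against 5.28 to 22.69 for Cd3e. In the same tumors Gzmb ranged from 81.4 to 370 and Prf1 from 112 to 581, against 7.91 to 27.05 for Cd8a. Which cells the Foxp3, Gzmb and Prf1 reads came from was not tested, so these genes are not read as measures of T cells.

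Genes of antigen presentation and of the interferon gamma response mostly lay below the additive level without passing any test. This held for 17 of 17 genes of MHC class II and dendritic cells (median -0.18), 14 of 15 genes of MHC class I presentation (median -0.19) and 17 of 18 interferon gamma-induced genes (median -0.27), beside 7090 of 14318 genes in all. Members of a list are co-expressed and are not independent, and 1, 3 and 0 of them lay below the additive level with an unadjusted p under 0.05. Of all genes 2.57% lay below with such a p. For the interferon gamma-induced genes the median difference from untreated was 0.25 under anti-PD-1 and 0.46 under chitin, and the median difference of the combination from chitin was -0.03. The corresponding values were 0.14, 0.28 and -0.06 for class I and 0.20, 0.28 and -0.06 for class II. The medians of these 3 lists kept their sign under each of 32 alternative settings (1 of which took additivity on normalized counts divided by the gene mean), from -0.52 to -0.20, -0.27 to -0.12 and -0.67 to -0.13 for the interferon gamma, class I and class II lists. Without the tumors with high Acta1 they were -0.20, -0.12 and -0.26. Other lists also kept the sign of their median under all 32 settings, among them T-cell receptor, endothelial and fibroblast genes. The settings largely reuse the same tumors, so an unchanged sign is a description.

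Cd74, the class II invariant chain, chosen after its values were seen, shows how wide the groups were. Its values were 11.09, 12.32, 10.69, 12.65 and 12.01 in untreated tumors and 11.47, 13.35, 11.93, 13.74 and 12.16 under anti-PD-1. Under chitin they were 13.26, 11.45, 13.50, 14.10 and 13.19, and in the combination 12.19, 14.01, 12.21, 13.82 and 11.91. Combination tumors 2 and 4 reached the level of the highest chitin tumors, whereas the other 3 lay within the untreated range, and the interaction of -1.05 had a 95% CI of -2.63 to 0.54. The same 2 tumors were highest in the combination group for H2-Aa, H2-Eb1 and H2-Ab1, the class II chains, also chosen after their values were seen. The interactions of these chains were -0.92 (SE 0.72), -1.01 (SE 0.77) and -0.89 (SE 0.68). Both tumors were also highest for Cxcl9, an interferon gamma-induced T-cell attractant, with values of 7.85, 9.46, 7.53, 9.38 and 7.72 in the combination. The interaction of Cxcl9 was -1.06 (SE 0.52, 95% CI -2.14 to 0.02, unadjusted p = 0.0531). H2-D1, a class I heavy chain, was tighter, with 12.09 ± 0.08 (SD, n = 5) in untreated, 12.27 ± 0.14 in anti-PD-1, 12.37 ± 0.09 in chitin and 12.22 ± 0.21 in combination tumors, and an interaction of -0.33 (SE 0.12, unadjusted p = 0.0138), which was -0.18 without the tumors with high Acta1.

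Type I interferon-stimulated genes had a median interaction of -0.06, with 7 above and 14 below the additive level. Irf7, a master regulator of type I interferon, had the smallest p among them (-0.32, SE 0.23). Without the tumors with high Acta1 the median was -0.02 and the value of Irf7 was -0.17.

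Macrophage genes had a median interaction of -0.11, with 4 above and 13 below the additive level and 1 (beside 4.99% of all genes) at an unadjusted p under 0.05. That gene was Adgre1, which encodes F4/80. Its normalized counts ranged from 1154 to 1568 in untreated, 1706 to 2387 in anti-PD-1, 1569 to 1892 in chitin and 1593 to 2514 in combination tumors. Each single treatment lay above all untreated tumors and the combination overlapped both, so that the interaction was -0.39 (SE 0.16, unadjusted p = 0.0296, adjusted p = 0.987 in limma). Without the tumors with high Acta1 it was -0.24, and the median of the macrophage list was -0.06. Csf1r, the receptor on which macrophages depend, had an interaction of -0.14 (95% CI -0.61 to 0.34), and Itgam (CD11b) had -0.26 (95% CI -0.74 to 0.22). Arg1, the arginase of alternatively activated macrophages, chosen after its values were seen, was the highest of the list at 0.86 (SE 0.60), with a mean of 11.04 ± 0.67 (SD, n = 5) in untreated against 10.06 ± 0.97, 10.12 ± 0.76 and 10.01 ± 0.51 in anti-PD-1, chitin and combination tumors.

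Of the chitinase-like proteins, Chil1, which encodes CHI3L1, had an interaction of -0.07 (95% CI -0.81 to 0.67) and Chil3, which encodes CHI3L3, had 0.07 (95% CI -0.21 to 0.34). Chil3 had only 0 to 6 reads per tumor. At such counts the log2-like scale compresses differences, so this interval does not bound its fold change. Of 14 genes of chitinase-like proteins, chitinases and chitin-binding receptors, 9 were in the table, with 2 above and 7 below the additive level and a median of -0.02. Chid1, a secreted chitinase-domain protein gene, was the member at an unadjusted p under 0.05 (0.19, SE 0.080), beside 4.99% of all genes. Lgals3, the galectin-3 gene, had -0.31 (SE 0.25). Without the tumors with high Acta1 Chil1 was at 0.34, Chil3 at 0.01 and Lgals3 at -0.19, and the median of the list was -0.12.

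Neutrophil genes had a median of 0.07, with 9 above and 4 below the additive level, and inflammatory cytokines and chemokines had a median of 0.05, with 11 above and 8 below, none at an unadjusted p under 0.05 in either list. The neutrophil attractants Cxcl1 and Cxcl2 had interactions of 0.33 (SE 0.19) and -0.12 (SE 0.26), the monocyte attractant Ccl2 had 0.16 (SE 0.31) and Tnf had 0.04 (SE 0.095). Proliferation genes had a median of 0.02, with Mki67 at 0.01 (95% CI -0.49 to 0.52). Without the tumors with high Acta1 the medians were 0.23 for neutrophil and -0.07 for proliferation genes, and the values were -0.01 for Cxcl2, 0.03 for Ccl2, 0.0045 for Tnf and -0.19 for Mki67. Of the clock genes, 3 lay above and 12 below the additive level with a median of -0.06. Per1 was the member at an unadjusted p under 0.05, beside 4.99% of all genes. The clock median was -0.04 without the tumors with high Acta1. Emcn, an endothelial sialomucin gene, had an interaction of 0.38 (SE 0.13, unadjusted p = 0.0104), within an endothelial list whose median was -0.05.

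The skeletal muscle list stood farthest from 0, with 16 of 16 genes above the additive level, a median of 1.21 and 7 genes at an unadjusted p under 0.05, where 2.42% of all genes lay above with such a p. The values followed single tumors. The 16 genes summed to between 129 and 4934 normalized counts in untreated, 125 and 950 in anti-PD-1, 107 and 152 in chitin and 124 and 5946 in combination tumors. Acta1 had values of 6.28, 6.21, 10.42, 9.43 and 9.73 in the combination and 6.33, 6.51, 10.46, 7.34 and 6.46 in untreated tumors, so that 3 combination tumors and 1 untreated tumor were high, untreated tumor 4 was intermediate (56.7 normalized counts) and the other 5 had 0.81 to 6.88 normalized counts. Ttn, the giant sarcomere protein titin, had the smallest p of the list (1.20, SE 0.36, unadjusted p = 0.00320, adjusted p = 0.920 in limma). Without the 5 tumors with over 100 normalized counts of Acta1, a choice made after seeing the data, the median interaction of the muscle list was 0.01 and that of Ttn was 0.51. Acta1 is itself a member of this list, so the fall of the muscle values in that fit was built into the choice and tests nothing. In that fit 0 genes were called and 560 had an unadjusted p under 0.05. Adipocyte genes also varied by tumor, with a median of 0.21 and a summed level from 660 to 4784 normalized counts in the combination, against 419 to 996 under chitin. Their median was 0.72 without the tumors with high Acta1.

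**Figure D4:**
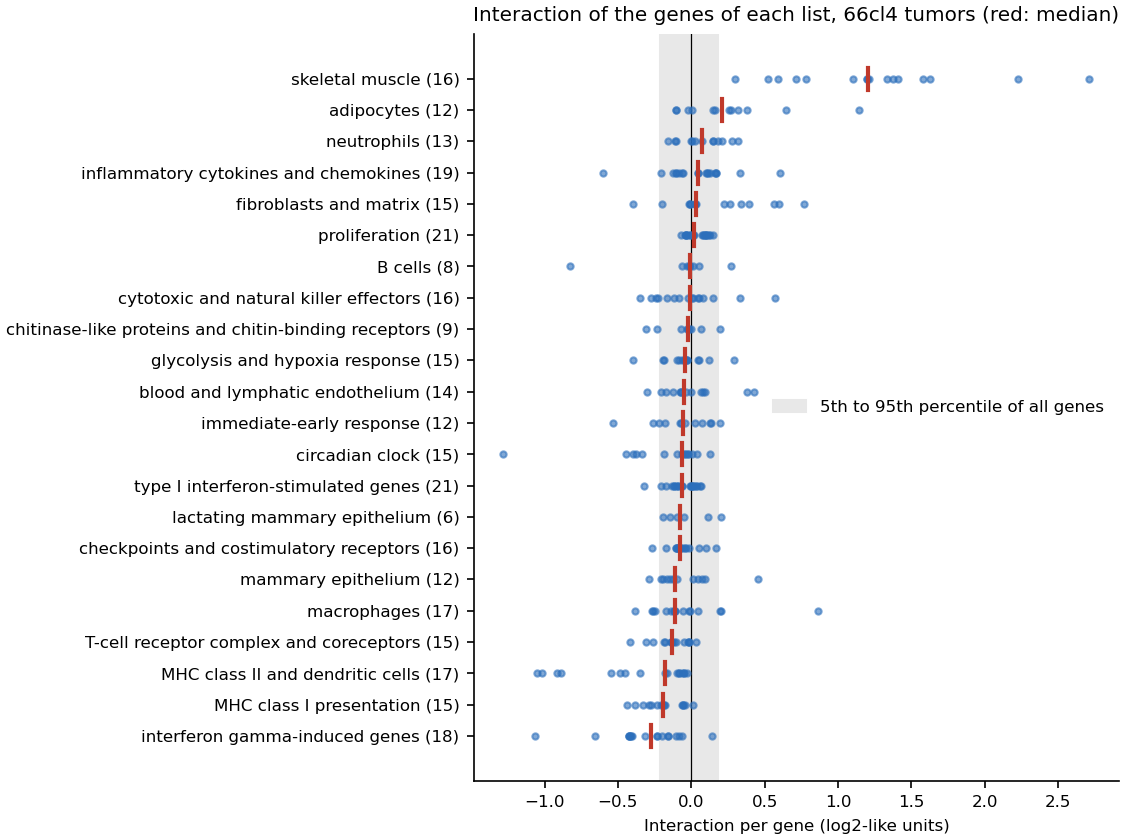
Interaction (log2-like units) of each gene of 22 lists, one point per gene, with the list median in red, the number of genes in the table in brackets and the 5th to 95th percentile of all 14318 genes shaded. Skeletal muscle genes lie at 0.30 to 2.71, and the medians of the interferon gamma, MHC class I and class II and T-cell receptor lists lie between -0.27 and -0.13.

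The 4T1-based model had the same layout, and the difference of its interaction from that in 66cl4 was tested for each gene. In a fit over all 39 tumors 0 genes (0%) had a difference at an adjusted p under 0.05 in limma and 0 in limma-voom, and 688 (4.81%) had an unadjusted p under 0.05 in limma, 292 (2.04%) with the higher interaction in 66cl4 and 396 (2.77%) with the lower. The count was 578 in limma-voom. Per1 had the smallest adjusted p of this difference, 0.286, with an interaction of 0.50 (SE 0.26) in 4T1 against -1.28 in 66cl4, a difference of -1.78 (SE 0.36). This difference passed the threshold with limma's array weights, with the tumor number as a block, and without anti-PD-1 tumor 3 of 66cl4. Across genes the interactions of the 2 models, which share no tumors, had a correlation of r = 0.10. Of the 10 positive leading genes 5 had the same sign in 4T1, and of the 10 negative ones 2 did, namely Sirt7 (-0.43, SE 0.15) and Abca7 (0.00, SE 0.11). Adcy5 had an interaction of -0.69 (SE 0.32) in 4T1 and Zfp345 of -0.02 (SE 0.14). Cd8a lay below the additive level in 4T1 as well (-0.98, SE 0.34), and its difference between models was 0.56 (SE 0.47, adjusted p = 0.945 in limma).

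**Figure D5:**
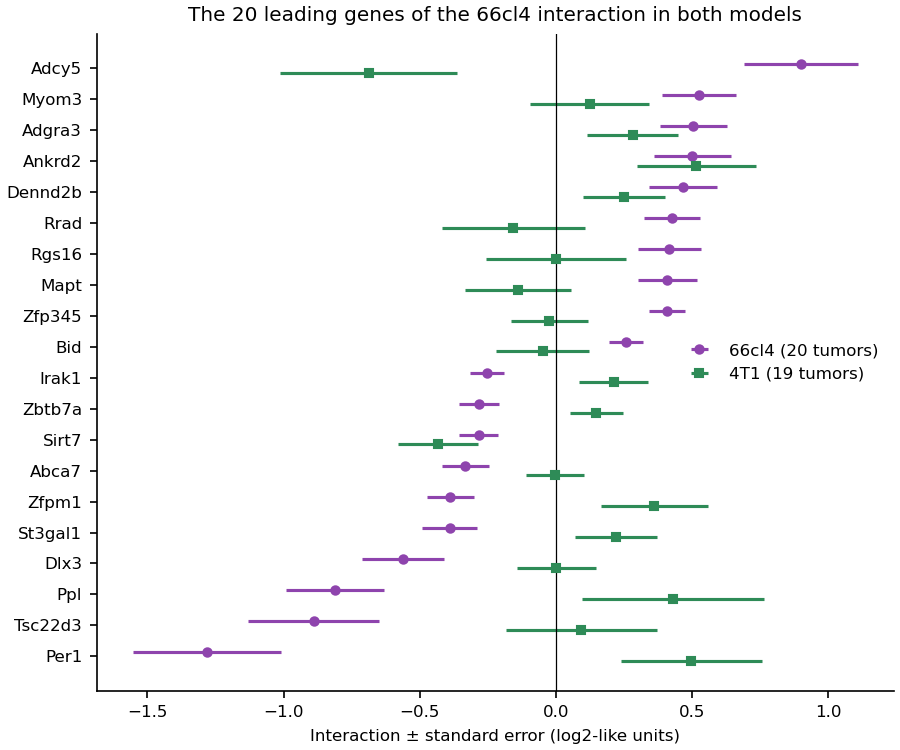
Interaction ± standard error (log2-like units) of the 20 leading genes of the 66cl4-based model, in 20 tumors of that model (purple circles) and 19 tumors of the 4T1-based model (green squares). The 4T1 values lie between -0.69 and 0.52, with Ankrd2 and Sirt7 on the same side as in 66cl4 and Adcy5, Ppl and Per1 on the other side.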

How the data were processed

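RNA sequencing of 39 primary tumors, each a separate sample per the labels, is given in 1 table of 14318 genes. The authors prepared stranded libraries, aligned reads to mm10 with HISAT2, counted them per gene with summarizeOverlaps, removed genes with few reads and applied DESeq2's variance stabilizing transformation; annotation and versions are not given in the sources used here. The deposited values are on a log2-like scale and were tested as they are. Inverting the transformation gave whole reads for 100% of values (tolerance 0.001), from which depth, normalized counts and limma-voom values were computed; reads carry counting error and are not independent molecules. The interaction was fitted with limma 3.58.1 in R 4.3.3 (4 groups, 20 tumors, eBayes with a mean-variance trend), and its difference between models and the 4T1 values over all 39 tumors and 8 groups. Adjusted p-values (Benjamini-Hochberg, all genes) had a threshold of 0.05. The procedure was tested on simulated data.

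Named genes were the 10 with the smallest p in each direction and 20 genes of the PD-1 axis, T cells, myeloid cells, chitinase-like proteins and proliferation. The member of each of 22 lists with the smallest p was also named. Other genes whose interactions are given were chosen after their values were seen. The members and lists were chosen with earlier results of these data known. Lists were described without a test.

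Symbols came from the table or, for 55 genes, from RefSeq, which placed 14309 genes. Figures used matplotlib 3.10.9. Alternatives were another gene filter, no trend, all tumors in 1 fit, median centring, quantile normalization, array weights, a replicate block, depth as a covariate, thinning to 5105898 reads, limma-voom, additivity of normalized counts, leaving out each tumor, and, added after seeing the data, leaving out the 5 tumors with high Acta1.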

Additional observations from a re-analysis of the deposited data

Results flagged for a closer look

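In 58 named genes and 4 groups, 232 groups of 5 tumors were examined for a tumor far from the other 4 (Dixon's criterion at 95%), and 19 values stood apart, where chance gives about 1 in 20 groups. All values below are log2-like expression values, and no explanation was tested. 

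Among the untreated tumors the values set apart above the others were those of Myom3 in tumor 3 (6.67, the others 6.32 to 6.34), Ankrd2 in tumor 3 (6.65, the others 6.38 to 6.41), Ifng in tumor 3 (6.22, the others all at 6.05, the value of no reads), Cxcl9 in tumor 4 (7.97, the others 7.22 to 7.42), Ccl2 in tumor 3 (10.08, the others 8.95 to 9.22) and Havcr2 in tumor 1 (7.53, the others 7.18 to 7.27). Among the untreated tumors the values set apart below the others were those of Adgra3 in tumor 1 (8.57, the others 8.75 to 8.82), Ppl in tumor 4 (8.996, the others 9.42 to 9.55) and Tnf in tumor 5 (6.69, the others 6.85 to 6.90). 

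Among the anti-PD-1 tumors the value set apart above the others was that of Ttn in tumor 3 (7.29, the others 6.63 to 6.78). Among the anti-PD-1 tumors the values set apart below the others were those of Adgra3 in tumor 4 (8.06, the others 8.50 to 8.53), Cd8b1 in tumor 4 (6.25, the others 6.68 to 6.77) and Egr2 in tumor 2 (7.18, the others 7.46 to 7.56). 

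Among the chitin tumors the value set apart below the others was that of Krt18 in tumor 5 (7.15, the others 8.21 to 8.46). 

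Among the combination tumors the values set apart above the others were those of Adgra3 in tumor 1 (8.77, the others 8.65 to 8.67), Cd8a in tumor 2 (7.21, the others 6.70 to 6.84) and Car3 in tumor 1 (10.34, the others 7.76 to 8.31). Among the combination tumors the values set apart below the others were those of Abca7 in tumor 4 (8.95, the others 9.01 to 9.03) and Dlx3 in tumor 4 (7.72, the others 8.06 to 8.19).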

How the results depend on the processing

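The interaction called 0 genes in the report, and it called 1 gene, Zfp345, without a mean-variance trend, with median centring, with the sum of normalized counts in place of log2-like values, and without chitin tumor 4; leaving out each tumor gave 0 to 1 called genes and 544 to 861 genes at an unadjusted p under 0.05. With all 39 tumors in 1 fit, 198 genes had an unadjusted p under 0.05. The difference between models called 0 genes in the report, 2 with array weights (Per1 and Scml4), 1 with the replicate block (Per1) and 1 without anti-PD-1 tumor 3 of 66cl4 (Per1). Its genes at an unadjusted p under 0.05 were 1590 with array weights, and leaving out each tumor gave 0 to 1 called genes and 509 to 1279 at that p, the highest without anti-PD-1 tumor 2 of 4T1. The causes were not tested.

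The tumor numbers of the labels recur in each group and were used for a replicate block, with 0 called genes and 775 at an unadjusted p under 0.05 for the interaction. Same-numbered tumors deviated from their group means with a mean r of 0.062 over 30 pairs, 11 of them over 0.1, against -0.015 over 120 other pairs, and 8 of 20 tumors were closest to their own number. Not every pair was over 0.1 and the labels do not say what a number marks, so the main fit took no pairing. Whether the numbers mark a block was not tested, and Per1 passed the difference between models when the block was used.

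Of 58 named genes, 48 kept the direction of the interaction under every alternative run for them (32 for 41 genes and 31 for the 17 that the filter on low means removed), among them all 20 leading genes. The leading genes and those that represent a list were picked by the smallest p of this same contrast in these tumors. Their unchanged direction was thus largely set by the choice and tests nothing. Without the 5 tumors with high Acta1, the direction turned for Pdcd1 (0.031), Cd274 (0.16), Chil1 (0.34) and Mki67 (-0.19). It turned with array weights for Chil1 (0.019) and Mki67 (-0.10), with limma-voom for Cxcl2 (0.082) and at equal read depth for Chil3 (-0.0061). Leaving out each tumor gave interactions of -0.090 to 0.012 for Foxp3, -0.0027 to 0.11 for Tnf, -0.25 to 0.0086 for Cxcl2, -0.030 to 0.31 for Ccl2, -0.26 to 0.0045 for Csf1r, -0.26 to 0.12 for Chil1 and -0.11 to 0.13 for Mki67. Genes with few reads, such as Cd8a and Zfp345, are compressed on the scale used, so their differences are understated.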

Other observations

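The remaining lists described the stroma, the epithelium and the state of the tumor cells, and no member of them passed the test. Fibroblast and matrix genes had a median interaction of 0.03, with 10 above and 5 below the additive level, from -0.40 (Col6a1) to 0.77 (Col3a1, a fibrillar collagen gene), and the member with the smallest p was Tagln, an actin-binding gene of contractile fibroblasts (0.39, SE 0.23). Mammary epithelial genes had a median of -0.11, with 5 above and 7 below, and Krt18, the keratin partner of Krt8, at 0.45 (SE 0.34). Without the 5 tumors with high Acta1, which leaves 2 tumors in the combination group, the epithelial median was 0.38, Krt18 was at 1.08 (unadjusted p = 0.00477, adjusted p = 0.999 in limma), the fibroblast median was 0.01 and Tagln was at 0.63. Of 10 genes of the lactating gland 6 were in the table, with a median of -0.07 and Xdh, an enzyme of milk fat secretion, at -0.19 (SE 0.12). Of 14 B-cell genes 8 were in the table, with a median of -0.01 and the chemokine gene Cxcl13 at -0.82 (SE 0.48). Without these 5 tumors the medians were 0.33 for the lactating gland and 0.05 for B cells, with Xdh at -0.06 and Cxcl13 at -0.48.

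Immediate-early genes had a median of -0.06, with 5 above and 7 below the additive level, from -0.54 (Dusp1, a MAP kinase phosphatase) to 0.19 (Fos). Genes of glycolysis and the hypoxia response had a median of -0.05, from -0.40 (Car9) to 0.29 (Adm, the vasodilator adrenomedullin). Without the same tumors the medians were 0.09 and 0.06, with Adm at 0.51. Of the genes that represent the other lists, Retnlg, a resistin-like gene of neutrophils, was at 0.28 (SE 0.15), Havcr2, the TIM-3 checkpoint receptor, at -0.27 (SE 0.16), Itgax (CD11c) at -0.35 (SE 0.15), Aurka, a mitotic kinase, at 0.15 (SE 0.18), Egr2 at -0.18 (SE 0.13) and Car3, a carbonic anhydrase of fat and muscle, at 1.14 (SE 0.94) and at 2.05 without the same tumors.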
